A study of Drosophila melanogaster with 6 samples.

Results

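The vacuolar ATPase (V-ATPase) genes of the deposited UMI table were all rows whose gene symbol starts with Vha. This rule found 27 of the 13189 Drosophila genes in the table, and it used no measured value. The libraries came from Drosophila melanogaster intestinal progenitor cells, the stem cells and undifferentiated daughters of the fly midgut, sorted for GFP driven by escargot (esg). There were 3 control libraries, labelled wildtype, and 3 labelled Pex5-depleted, each from 200 pooled guts and about 40000 sorted cells. Each library was made from polyadenylated RNA tagged near its 3' end with unique molecular identifiers (UMIs), so that a count stands for a captured molecule. Every replicate is thus a pool of animals. The labels used here state neither how Pex5 was depleted, nor in which cells or with which allele, nor the sex and age of the flies, and they give the flies used to set the sorting gate as esgGFP crossed to w1118.

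The V-ATPase is a rotary proton pump that acidifies lysosomes, endosomes and secretory granules, and in specialised epithelia it also moves protons across the plasma membrane. Its cytosolic V1 sector burns ATP in a ring of A and B subunits and turns a central rotor, and its membrane-bound V0 sector uses that rotation to carry protons on a ring of small proteolipids. In Drosophila several subunits are encoded by more than one gene, with a widely used copy and further copies known mostly from restricted tissues such as testis. In the midgut the pump is best known for the acid region, where copper cells secrete protons into the lumen.

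The libraries held 2573882 to 4793433 UMIs. The Pex5 transcript, the target named in the labels, was counted 8, 6 and 14 times in control replicates 1, 2 and 3, and in the Pex5-labelled replicates 2, 21 and 41 times. Its counts therefore did not show the depletion, and the group is called Pex5-labelled throughout. The esg transcript stood at 29.6, 42.3 and 55.5 CPM (counts relative to sequencing depth, with library sizes corrected by TMM factors) in the controls and at 47.2, 53.0 and 65.9 CPM in the other group. All 12 listed markers of intestinal progenitors had a row, and their sums overlapped between the groups, at 205 to 308 CPM in the controls against 297 to 350.3 CPM. Other measures of the whole library moved with the label. Transcripts of the mitochondrial genome took 5.63% to 7.44% of control UMIs and 8.04% to 9.31% in the other group. Heat shock protein transcripts took 1.55%, 2.44% and 3.33% of UMIs in the controls and 3.47%, 4.09% and 3.70% in Pex5-labelled libraries. All 12 listed enterocyte markers had a row, and they summed to 268 to 419.9 CPM in the controls against 584 to 699.7 CPM. The rise was not shared by all of them. Mean levels of Jon25Biii and Amy-p were 19.5 and 71.1 CPM in the controls against 193 and 170 CPM. Those of mex1 and Myo31DF were 137 and 16.8 CPM against 123 and 17.1 CPM. All 17 listed enteroendocrine markers had a row, and they summed to 1131 to 3210.4 CPM in the controls against 592 to 1070.1 CPM. In the controls the largest was Orcokinin, which varied widely there, at 1278 ± 978 CPM against 270 ± 83.8 CPM (SD, n = 3 each). Of the 13 tested markers 1, nrv3, had a positive log2 fold change, at 10.9 against 16.4 CPM. The part of these shifts in the values below was not tested.

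V-ATPase transcripts were present in all 6 libraries and came almost entirely from the single-copy genes and the widely used copies, as these are known from other fly tissues. The 27 genes together held 42528 UMIs, of which 41602 (97.8%) came from 15 genes that are the only or the widely used copy of their subunit. The other 12 genes, all further copies, held 926 UMIs (2.18%), between 1.37% and 3.21% in any library. Of the 27 genes 18 passed the expression filter and were tested, and the 9 others held 86 UMIs in all. No V-ATPase gene changed past the threshold between the groups: 0 of 18 rose and 0 fell at a Benjamini-Hochberg adjusted p of 0.05 in edgeR's quasi-likelihood test. Over all 5639 genes tested, 93 (1.65%) passed, with 47 (0.833%) higher and 46 (0.816%) lower in the Pex5-labelled libraries. That whole-table count fell to between 17 and 80 in the fits that left out 1 library, with the lowest count without control replicate 1. Tested V-ATPase genes lay on both sides of 0, with 9 log2 fold changes positive and 9 negative. Their median was 0.03, the same to 2 decimals as the median of 0.03 over all tested genes. Across the 13 other fits the median of the V-ATPase genes lay between -0.23 (no count filter) and 0.14 (without Pex5-labelled replicate 1).

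At an unadjusted p under 0.05 by edgeR, 5 of the 18 V-ATPase genes (27.8%) stood out, against 745 of all tested genes (13.2%). DESeq2 and limma-voom each gave 6 of 18, with 0 past the adjusted threshold. In the edgeR fits that left out 1 library the count ran from 3 (without control replicate 1) to 6 (without control replicate 3). The share over all genes was not computed for these other fits, so their counts cannot be read as an excess. The 5 genes in the edgeR fit to all libraries were Vha36-1, VhaSFD, VhaAC45 and Vha100-1, with higher values in the Pex5-labelled libraries, and Vha14-1, with lower values. These genes were singled out after their values were seen. The CPM ranges of the groups did not overlap for 4 of the 18 (22.2%), while the same held for 1080 of the 5639 tested genes (19.2%). The share of non-overlapping genes was thus near that of the whole table. For 14 of the 15 widely used and single-copy genes (Vha100-2 was less precise) the 95% intervals of the log2 fold change reached no lower than -0.95 and no higher than 1.16.

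**Figure D1:**
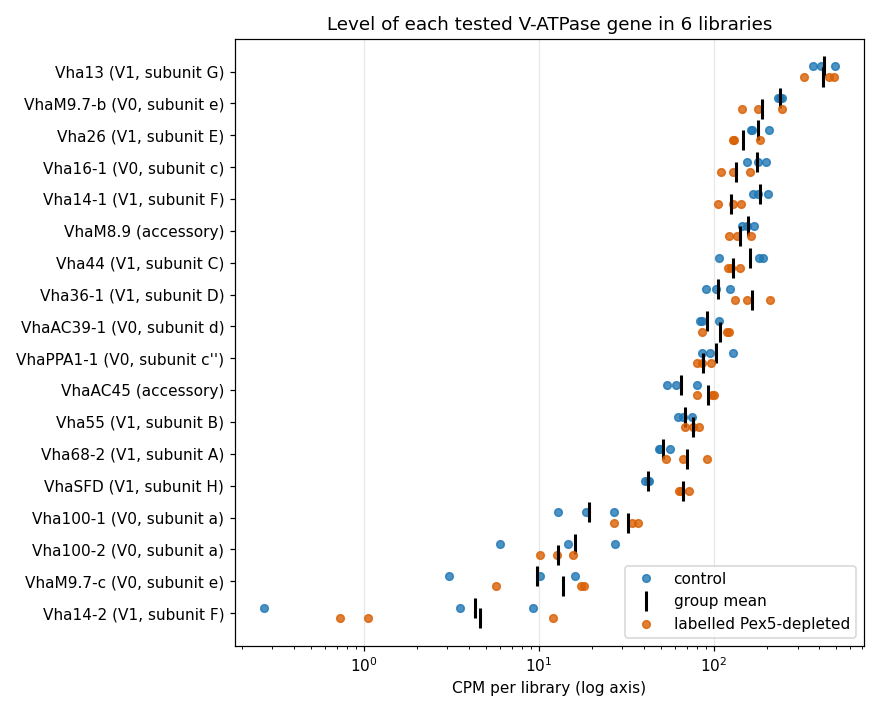
CPM of each of the 18 tested V-ATPase genes on a log axis, with 1 point per library, coloured by group, and a black bar at each group mean (n = 3 each). Vha13 lies highest at 327 to 491 CPM, and the group points separate for Vha14-1, Vha36-1, VhaAC45 and VhaSFD.

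In the catalytic ring of V1, the nucleotide-binding A subunit came from Vha68-2 and the B subunit from Vha55. Vha68-2 (chromosome 2L, 12974322 to 12978607, plus strand) stood at 56.2, 48.4 and 49.1 CPM in the controls and at 90.8, 66.8 and 53.3 CPM in Pex5-labelled replicates 1, 2 and 3. The groups overlapped, since the third of these lay below control replicate 1, and the log2 fold change of 0.45 (SE 0.25, 95% interval -0.07 to 0.98) did not pass (adjusted p = 0.469 by edgeR, Benjamini-Hochberg). Vha55 (chromosome 3R, 12623762 to 12627829, minus strand) stood at 62.2, 66.9 and 75.3 CPM against 76.2, 68.7 and 82.0 CPM, a log2 fold change of 0.15 (SE 0.21). Both ring subunits were at similar levels, 60.8 and 71.9 CPM over all 6 libraries, or 24.0 and 26.4 CPM per kb of the longest annotated transcript. The other A copies, Vha68-1 and Vha68-3, had 16 and 10 UMIs in all, against 1257 for Vha68-2. They lie near it on chromosome 2L, at 13000770 to 13004107 and 12978786 to 12981293.

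The central rotor is built from the D subunit, encoded here by Vha36-1, and the F subunit, encoded mainly by Vha14-1. Vha36-1 (chromosome 2R, 15541435 to 15542498, plus strand) stood at 102, 124 and 90.0 CPM in the controls, against 131, 155 and 209.8 CPM in the Pex5-labelled libraries. All 3 of the latter lay above all 3 controls. Its log2 fold change of 0.65 had an SE of 0.22 and a 95% interval from 0.19 to 1.11. The edgeR quasi-likelihood p was 0.00914 before and 0.190 after Benjamini-Hochberg adjustment. Vha14-1 (chromosome 2R, 15679426 to 15680084, minus strand) had lower values in the Pex5-labelled libraries, with 204, 178 and 168 CPM in controls and 105, 128 and 142 CPM in that group. Again the groups did not overlap, and the log2 fold change of -0.55 had an SE of 0.19 and a 95% interval from -0.95 to -0.15 (edgeR, Benjamini-Hochberg adjusted p = 0.205). Neither gene passed. Since the groups separated in opposite directions for these genes, their ratio within each library had to separate the groups too, and it adds no evidence. Vha36-1 had 0.501, 0.699 and 0.536 UMIs per Vha14-1 UMI in the controls, against 1.25, 1.21 and 1.48 in the Pex5-labelled libraries, a ratio chosen after the values were seen and given with no test. Both genes have a single exon and a single annotated transcript.

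Vha14-2, a further F copy, varied widely among libraries of the same group. Its counts were 13, 27 and 1 UMIs in the controls, against 2, 5 and 35 UMIs in the other libraries. The groups overlapped, and control replicate 3 was the lowest library and Pex5-labelled replicate 3 the highest. The log2 fold change of 0.08 had an interval from -2.23 to 2.39, and without Pex5-labelled replicate 3 it was -2.22. Vha14-2 made up 0.159% of F subunit UMIs in control replicate 3 (Wilson 95% interval 0.0280% to 0.894%) and 7.76% in Pex5-labelled replicate 3 (5.63% to 10.6%). Its share averaged 2.26% ± 2.43 in the controls, against 3.09% ± 4.05 in the other libraries (SD, n = 3 each; exact permutation p = 0.8, two-sided). The smallest p that 3 libraries against 3 allow is 0.1. Vha36-2 and Vha36-3, the further D copies, had 1 and 4 UMIs in all.

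The peripheral stalks hold the ring still and are built from E and G subunits, joined to V0 through the C and H subunits. Vha13, which encodes the G subunit (chromosome 3R, 19643018 to 19644386, minus strand), had the highest level of all members, with 410.4, 491 and 369.5 CPM in controls and 327, 452 and 484 CPM in Pex5-labelled libraries. Its level of 422 CPM over all libraries was 448 CPM per kb, and on both scales its lowest library lay above the highest library of the gene next in order. Its log2 fold change of -0.01 (SE 0.18) had an interval from -0.40 to 0.38, and its sign turned without Pex5-labelled replicate 1 (0.14) or control replicate 2 (0.09). Vha26, the E subunit gene, stood at 162, 165 and 205 CPM against 183, 128 and 131 CPM. Vha44, the C subunit gene, stood at 182, 191 and 107 CPM against 142, 120.4 and 125 CPM. Both had overlapping groups, with log2 fold changes of -0.27 (SE 0.20) and -0.31 (SE 0.22). The control spread of Vha44 came from replicate 3, the lowest of the 6 libraries.

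VhaSFD encodes the H subunit, which in yeast is needed for activity and keeps free V1 from burning ATP. The gene (chromosome 2L, 16722883 to 16727826, minus strand) stood within a narrow range in the controls, at 42.3, 40.6 and 42.2 CPM, and at 64.6, 63.05 and 72.4 CPM in the Pex5-labelled libraries. The groups were separate, and the gap between them exceeded the spread within either. The log2 fold change of 0.68 had an SE of 0.23 and a 95% interval from 0.19 to 1.16. The edgeR quasi-likelihood p was 0.00936 before and 0.192 after Benjamini-Hochberg adjustment. In the 6 fits without 1 library it lay between 0.59 and 0.71, with adjusted p between 0.309 and 0.420.

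In V0, protons pass between the a subunit and the proteolipid ring of c and c'' subunits. The ring gene Vha16-1 (chromosome 2R, 6625242 to 6633090, minus strand) was the only c copy with a row, at 197, 179 and 155 CPM in controls and 160.4, 129 and 109.7 CPM in Pex5-labelled libraries. The groups overlapped by 1 library on each side, and the log2 fold change of -0.41 had an SE of 0.20 and a 95% interval from -0.83 to 0.01 (edgeR, Benjamini-Hochberg adjusted p = 0.390). VhaPPA1-1, the c'' gene, stood at 128, 94.8 and 85.7 CPM against 85.7, 95.8 and 79.6 CPM. Its log2 fold change was -0.24 (SE 0.22). VhaAC39-1, whose d subunit couples the rotor to the ring, stood at 82.8, 107 and 85.2 CPM against 118, 84.9 and 121 CPM, a log2 fold change of 0.23 (SE 0.22).

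The e subunit, a small membrane protein of V0, came mainly from VhaM9.7-b (chromosome 3L, 21539862 to 21541215, plus strand), which ranked 2 by mean CPM and 3 by CPM per kb, with a range in CPM that overlapped that of Vha26, the next in order. It stood at 239.7, 244 and 233 CPM in the controls, against 145, 178 and 243 CPM in the Pex5-labelled libraries. The controls lay close together and the other libraries did not, so the groups overlapped, with a log2 fold change of -0.34 (SE 0.20). The further copy VhaM9.7-c lies within the span of Teh2 on the same strand without exon overlap, and it stood at 16.01, 3.07 and 10.1 CPM against 17.4, 5.67 and 18.1 CPM. VhaM9.7-c took 6.21%, 1.24% and 4.17% of e subunit UMIs in the controls, against 10.7%, 3.05% and 6.84% in the other libraries (exact permutation p = 0.4, two-sided). VhaM9.7-a had 33 UMIs in all and VhaM9.7-d had 1.

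The a subunit carries the proton half-channels and is the part known to direct the pump to different membranes. It was the only subunit for which a further copy, Vha100-1, took a large part of the UMIs, at 46.2% to 75.6% by library. Its summed level had the lowest mean of the 15 subunits, at 35.5 ± 16.3 CPM in controls and 47.6 ± 5.39 CPM in Pex5-labelled libraries (SD, n = 3 each). Its mean was again lowest per kb, at 13.6 CPM per kb over all libraries. The order did not hold in every library, since the range of the a subunit, 24.4 to 54.2 CPM, overlapped that of the H subunit, 40.6 to 72.4 CPM. Vha100-1 (chromosome 3R, 29131193 to 29137980, plus strand), known from neurons, stood at 18.5, 26.9 and 12.8 CPM in the controls, against 36.7, 26.9 and 33.8 CPM in the Pex5-labelled libraries. Control replicate 2 met the lowest of the other group, and the log2 fold change of 0.74 had an SE of 0.34 and a 95% interval from 0.01 to 1.47 (edgeR, Benjamini-Hochberg adjusted p = 0.364). All 6 listed neuron markers had a row, and they summed to 25.5 to 34.1 CPM in controls and 21.4 to 34.5 CPM in Pex5-labelled libraries. Vha100-2 (chromosome 3R, 18390323 to 18399169, minus strand), listed here as the widely used copy, had fewer UMIs than Vha100-1 (296 against 523 in all) and stood at 5.97, 27.3 and 14.7 CPM against 10.2, 15.6 and 12.6 CPM. Its log2 fold change of -0.31 (SE 0.50) turned to 0.29 without control replicate 2. Vha100-1 overlaps Alg13 (37 UMIs) by 11 bases, and Vha100-2 overlaps Vti1b (1072 UMIs) by 2175 bases without exon overlap, both on the opposite strand.

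Vha100-1 made up 75.6%, 49.7% and 46.2% of a subunit UMIs in control replicates 1, 2 and 3, with Wilson 95% intervals of 65.8% to 83.3%, 42.0% to 57.4% and 36.9% to 55.7%. It made up 68.7%, 63.1% and 72.3% in Pex5-labelled replicates 1, 2 and 3. Control replicate 1 was thus the highest of all, and the other 2 controls were the lowest. The means were 57.1% ± 16.1 and 68.0% ± 4.64 (SD, n = 3 each), and the exact permutation p was 0.4 (two-sided). Such intervals cover counting error only.

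**Figure D2:**
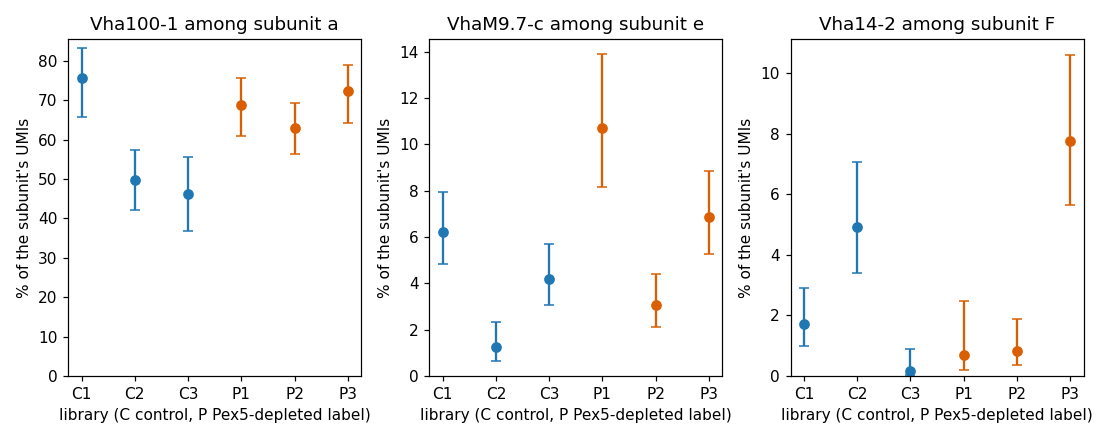
Share of a further copy among the UMIs of its subunit in each library (percent, 1 point per library with its Wilson 95% interval; C1 to C3 are controls, P1 to P3 the Pex5-labelled libraries). Vha100-1 takes 46.2% to 75.6% of the a subunit, while VhaM9.7-c and Vha14-2 stay at or below 10.7%. Each copy varies between libraries of at least 1 group by more than its intervals.

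The 3 remaining a copies were at or near 0. Vha100-5 had 0 UMIs in each control, and 15, 1 and 1 in the Pex5-labelled libraries. Taking 3 UMIs for the control group as the floor, this is at least 5.35-fold higher, and without Pex5-labelled replicate 1 only 2 UMIs are left, under the floor, so no fold can be given. An antisense RNA gene (asRNA:CR44144, 6 UMIs) overlaps an exon of Vha100-5 by 355 bases, and use of strand in the counting is not given, so reads of the pair cannot be told apart. Vha100-4, known from the acid-secreting copper cells, had 3 UMIs, all in that same Pex5-labelled replicate 1, and Vha100-3 had 1 UMI in control replicate 3. The 3 listed copper cell markers, lab, dve and ct, summed to 3.53 to 12.0 CPM in controls and 2.73 to 5.81 CPM in Pex5-labelled libraries. They went in both directions, with dve at 66 UMIs in the controls against 11, lab at 3 against 11 and ct at 10 against 17. Of 12 listed testis markers 9 had a row, with sums of 2.05 to 7.06 CPM and 2.94 to 6.17 CPM. Of 11 listed Malpighian tubule markers, an organ rich in V-ATPase that joins the gut at the hindgut boundary, 8 had a row, with sums of 1.60 to 4.09 CPM and 0.363 to 7.99 CPM. Where a library lists 0 UMIs its true level may still reach the worth of 3 UMIs, 0.626 to 1.17 CPM by library, so low use of these copies was not detectable at this depth.

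The accessory subunits sit on V0 and act in assembly of the pump. VhaM8.9, whose product is the fly form of the prorenin receptor, stood at 169, 155 and 144 CPM in controls and at 136, 122 and 162 CPM in Pex5-labelled libraries, with overlapping groups and a log2 fold change of -0.16 (SE 0.19). VhaAC45 (chromosome 2R, 9207561 to 9209774, plus strand) stood at 60.8, 53.9 and 79.8 CPM against 98.0, 80.1 and 100.4 CPM. Its groups touched without overlapping, with control replicate 3 just below the lowest of the other group, and its log2 fold change of 0.51 had an SE of 0.23 and a 95% interval from 0.03 to 1.00 (edgeR, Benjamini-Hochberg adjusted p = 0.341). The related gene that the annotation calls VhaAC45RP is listed in the table as CG31030, outside the rule.

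**Figure D3:**
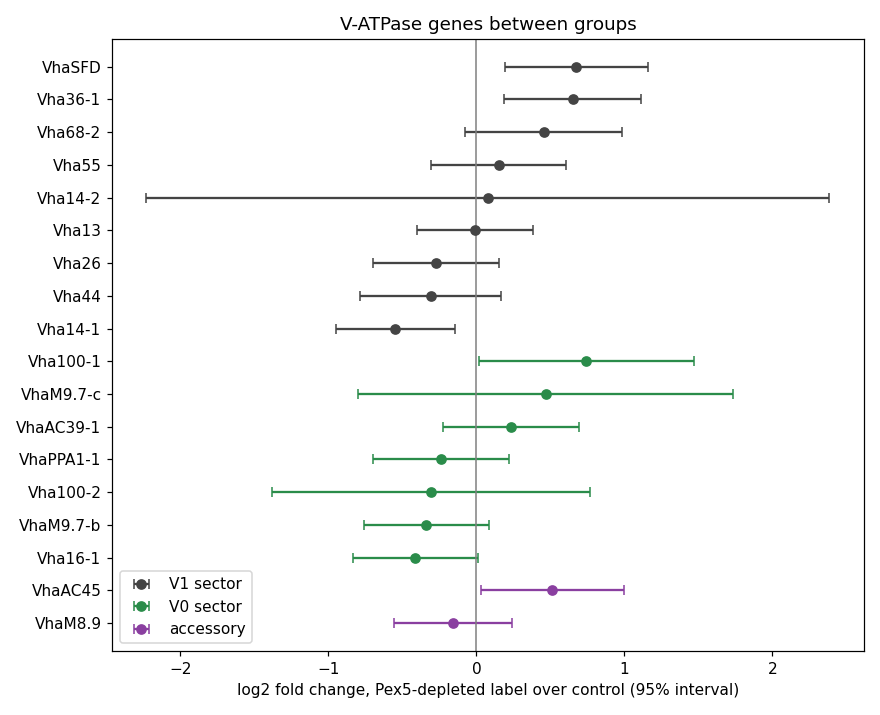
Log2 fold change of each tested V-ATPase gene, Pex5-labelled libraries over control, from edgeR with 3 libraries per group, with bars for the 95% interval of each single gene. The points run from -0.55 (Vha14-1) to 0.74 (Vha100-1) on both sides of 0 within V1 (black), V0 (green) and the accessory genes (purple), and none passed the adjusted threshold.

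Ordered by level, most neighbours could not be told apart. Of the 17 pairs of neighbours among the 18 tested genes, 15 had overlapping ranges over the 6 libraries in CPM and 16 had them in CPM per kb. In CPM the order broke below Vha13 and again between VhaSFD, at 54.2 CPM, and Vha100-1, at 25.9 CPM. Per kb the only step between neighbours was the one below Vha13, and VhaM9.7-c came between VhaSFD and Vha100-1 in the order. Since each molecule is tagged near its 3' end, CPM is already a count of molecules, and the values per kb are given for comparison.

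Over the whole pump, the share of the library was compared by exact permutation, which cannot give a p under 0.1 with 3 libraries per group. The 27 genes held 0.224%, 0.215% and 0.204% of all UMIs in control replicates 1, 2 and 3, compared with 0.207%, 0.191% and 0.193% for the Pex5-labelled ones. The ranges overlapped, with means of 0.214% ± 0.00999 and 0.197% ± 0.00871 (SD, n = 3 each; exact permutation p = 0.2, two-sided). In such bulk samples, fewer cells of a type and less RNA per cell cannot be told apart. The median log2 fold change was 0.08 over the 9 tested V1 genes, -0.24 over the 7 tested V0 genes and 0.18 over the 2 accessory genes. V1 genes held 64.02%, 65.8% and 65.01% of V1 plus V0 UMIs in the controls, against 65.9%, 68.7% and 67.8% in the other libraries. Every library of the latter lay above every control, with a smallest step from 65.8% to 65.9%, with means of 64.9% ± 0.881 and 67.5% ± 1.46. The exact permutation p was 0.1 (two-sided), the smallest this design allows. Leaving out the c and c'' ring genes, the means were 76.3% and 77.1% with an exact permutation p of 0.7. The ranges then overlapped, at 75.7% to 77.1% in the controls, against 75.2% to 79.1% in the other libraries.

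**Figure D4:**
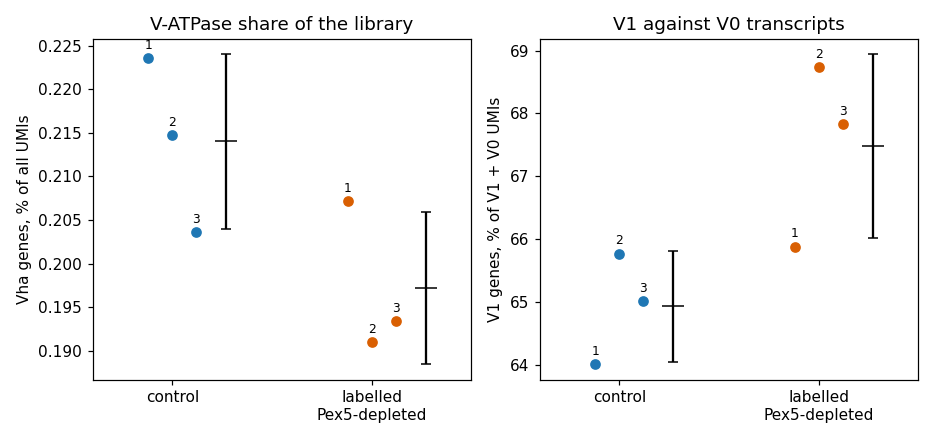
Left, the 27 Vha genes as percent of all UMIs in each library; right, V1 genes as percent of V1 plus V0 UMIs (points numbered by replicate, black bar mean ± SD, n = 3; neither axis starts at 0). The left ranges overlap between 0.204% and 0.207%, and on the right the groups are separated only by the step from 65.8% to 65.9%.

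Genes that act with the pump were counted from lists. Of 6 genes for V-ATPase assembly and regulation 5 were tested, with 0 higher, 0 lower and a median log2 fold change of 0.10. The most abundant were mtd, at 27.1 ± 4.34 against 22.1 ± 6.42 CPM, and TM9SF4, at 14.8 ± 5.43 against 26.8 ± 8.87 CPM (SD, n = 3 each). Mitf, the transcription factor known in flies to drive V-ATPase genes, stood at 8.48 ± 0.990 against 5.99 ± 1.58 CPM, a log2 fold change of -0.49 (SE 0.55). Rbcn-3A, whose product helps V1 and V0 assemble, had 20 UMIs in the controls, against 72 in the other libraries, a log2 fold change of 1.93 (SE 0.75) that did not pass (adjusted p = 0.267 by edgeR, Benjamini-Hochberg). Mitf and Rbcn-3A were named after their values were seen.

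Among 24 listed lysosomal hydrolases and membrane proteins, the compartment the pump acidifies, 15 were tested, and 1 rose while 0 fell, where 0.833% of all tested genes rose and 0.816% fell. The median of their log2 fold changes was 0.18. The gene that rose was 26-29-p, a cathepsin-type cysteine protease gene, at 24.2 ± 5.50 against 60.8 ± 6.69 CPM (SD, n = 3 each). It rose by 1.33 on the log2 scale (SE 0.27), with edgeR giving 0.0247 as its Benjamini-Hochberg adjusted p. Its call was lost in 4 of the 6 fits without 1 library, those without control replicate 1 (adjusted p = 0.125 by edgeR) and without Pex5-labelled replicates 1, 2 and 3 (0.0808, 0.112 and 0.0695). Of 16 listed genes of the TORC1 platform on lysosomes, a nutrient sensor that contacts the V-ATPase, 14 were tested with 0 past the threshold and a median of 0.06. Of 8 chloride and proton exchangers and carbonic anhydrases only ClC-b and ClC-c were tested, with log2 fold changes of -0.50 (SE 0.79) and 1.60 (SE 0.89), and neither passed. The 8 genes summed to 10.4 to 14.7 CPM in the controls and 20.6 to 22.9 CPM in the Pex5-labelled libraries, without overlap. This sum was not tested, and among single tested genes 19.2% had groups without overlap. The 6 untested genes, named after their values were seen, went in both directions. CAH1 had 2 UMIs in the controls against 27, Nhe2 5 against 44, Nhe3 13 against 28 and CAHbeta 1 against 15. CAH2 had 15 UMIs in the controls against 6, and Nhe1 16 against 13. Nhe2 was uneven among the Pex5-labelled libraries, at 3.64 ± 3.30 CPM (SD, n = 3). So were ClC-c (5.68 ± 4.14 CPM), Nhe3 (2.29 ± 1.84 CPM) and CAHbeta (1.70 ± 1.99 CPM), while CAH1 was at 2.70 ± 0.583 CPM.

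The mitochondrial ATP synthase is the structural relative of the V-ATPase that runs in the opposite direction. Of its 17 listed genes 13 were tested, with 0 higher, 0 lower, 3 positive values and a median log2 fold change of -0.14. Its genes were far more abundant than those of the V-ATPase, with a summed 14757 to 15709.9 CPM in controls and 12426 to 14756 CPM in Pex5-labelled libraries. ATPsynC, its proteolipid ring gene, stood at 7285 ± 142 against 6021 ± 948 CPM (SD, n = 3 each), and its log2 fold change was -0.28 (SE 0.14). Whether the V-ATPase and ATP synthase genes differ in their response was not tested.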

How the data were processed

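Poly-A transcripts of sorted progenitors were counted in 6 libraries. The authors deposited UMI counts per gene and well index; 29 columns of other well indexes match no sample here and were not used, and 6 spike-in rows (7 UMIs) were left out. Per the submitters' processing notes, HISAT2, StringTie, DESeq2 and build dm6 were used, with neither versions nor roles given. The deposited run metrics list reads at multiple loci as dropped, so copies with near-identical sequence can be undercounted. The authors also deposited a table of signed fold changes (a score) with p-values with no sides named; it entered no test. Positions are those of the UMI table, and transcript lengths are from the Ensembl BDGP6 annotation.

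edgeR 4.0.16 (R 4.3.3) was fitted to the counts as deposited across all 5639 genes that passed its expression filter (minimum count 10). The fit used TMM factors, group as the only term, and p-values adjusted by Benjamini-Hochberg over those genes. It was also run on counts simulated from edgeR's own fitted model, which cannot show whether that model suits these data. The standard error is the size of the log2 fold change divided by the square root of F. Shares were compared by exact permutation over libraries (scipy 1.17.1). Alternatives were RLE or no factors, other filters, DESeq2 1.42.0, limma-voom (limma 3.58.1), a replicate block and each library left out. The labels call the replicates biological; no pair within a group matched within counting error (chi-square over its degrees of freedom was 11.5 to 18.6). Members, lists and tests were chosen with earlier results of these data known. Every tested member is named; the rule asked for values by library for the 10 most abundant and for copies of 1 subunit, and those of VhaAC45, Vha55, Vha68-2 and VhaSFD were added after their values were seen. From each list at most 3 genes past the threshold, or the 2 most abundant, were to be named. No sequences are shown.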

Additional observations from a re-analysis of the deposited data

How the results depend on the processing

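The count of 0 V-ATPase genes past the threshold was the same in each of the 13 other fits, with lowest adjusted p between 0.0606 (DESeq2) and 0.358 (edgeR without control replicate 1, Benjamini-Hochberg). Over all genes the count of 93 was 208 with DESeq2, 197 without a count filter, 58 with the replicate block and 17 to 80 without 1 library. The replicate numbers pair nothing in the labels, and same-numbered libraries did not deviate together (correlations of -0.014, -0.052 and 0.012); the block gave 0 V-ATPase genes past the threshold. The lysosomal list had 0 to 1 genes past the threshold without 1 library. The difference in V1 share, 2.55 percentage points, was 0.758 without the ring genes. Of 234 values of single V-ATPase genes under other settings, 10 in 3 genes changed sign and 224 kept their sign, with 0 values crossing the threshold; DESeq2 gave Vha14-2 no adjusted p. The sign changed for Vha100-2 with limma-voom (0.020) and for Vha14-2 with limma-voom (-0.046), without a composition factor (-0.05) and with the replicate block (-0.68). Without 1 library Vha13 lay between -0.14 and 0.14, Vha100-2 between -0.71 and 0.29, and Vha14-2 between -2.22 and 1.22. Depth limits the further copies: the 9 untested members held 86 UMIs.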

Other observations

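The authors' deposited table lists 32 Vha genes, 6 of them with no row in the UMI table (Vha16-2, Vha16-3, Vha16-4, Vha16-5, VhaAC39-2 and VhaPPA1-2, not analysed here). In the authors' deposited table the signed fold was -7.54 for Vha13, -9.60 for Vha14-1 and -3.77 for Vha36-1, while Vha14-2 was at 467 and Vha16-2 at 208. Of the 17 genes in it that were tested here, 15 had a negative fold in the authors' deposited table. Which group is the numerator there is not stated, so the direction of a single gene cannot be compared with the UMI counts. The relative signs can be, and they differed. Vha14-1 and Vha36-1 share a sign there, while their log2 fold changes from the UMI counts were -0.55 and 0.65. As printed, 8 of the 17 had the same sign in both. Sizes differed too, though the scales are not the same, signed folds there and log2 fold changes here. Vha13 had a signed fold of -7.54 there, while its log2 fold change of -0.01 from the UMI counts is near no change. The source of these differences was not tested.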
